A study of Danio rerio with 12 samples.

Results

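The PAR bZIP, ciart and bhlhe40/41 genes are 9 transcription regulators of the circadian clock and its output, chosen by gene symbol from the 32674 genes of the deposited table. By role they are the PAR bZIP activators dbpa, dbpb, tefa, hlfa and hlfb, the repressors ciarta and ciartb, and the repressors bhlhe40 and bhlhe41. The paralog tefb was not analysed here. Retinal RNA came from adult zebrafish of the EK strain, of the F3 generation of either of 2 lineages. In the MeHg lineage, eggs of the F1 founders had spent 24 h in methylmercury (MeHg, an organic mercury compound) at 0.03 µM, with ethanol as the vehicle. In the control lineage the founders' eggs had met 0 µM MeHg and the same vehicle. No fish of the F2 or F3 generation met added MeHg, and the comparison asks whether the retinal transcriptome differed between the descendants. The libraries used were numbers 3, 4, 5, 7 and 8 of the control lineage and 2 to 7 of the MeHg lineage. The labels call them biological replicates. They give no hour of collection, light schedule or sex, nor the number of founder pairs behind each lineage. Each exposure is a single lineage, so the p-values given here measure spread between libraries, not between lineages. Effects of collection hour and family were not tested and cannot be told apart from lineage.

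In vertebrates the CLOCK and BMAL activators bind E-box sequences and drive, among others, the period, cryptochrome and PAR bZIP genes. PAR bZIP proteins (proline and acidic amino acid-rich basic leucine zipper factors) bind D-box sequences and activate output genes, and NFIL3 repressors compete for the same sites. CIART, also called CHRONO, and BHLHE40 and BHLHE41, also called DEC1 and DEC2, repress transcription driven by CLOCK and BMAL, as known from mammals. Zebrafish tissues hold clocks that respond to light directly, and D-box sequences carry part of that light response in this species.

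Values are FPKM, that is, fragments adjusted for the length of a gene and the size of a library. The companion table implied 2838155 to 6749645 assigned fragments per library. Rod and cone markers marked both lineages as retina. The 6 rod genes summed to 8226 to 26330 FPKM in control and 5743 to 7845 FPKM in MeHg libraries. Of these, rho averaged 13770 FPKM in control libraries and was listed at 0 in all 6 MeHg libraries. The MeHg rod sums thus hold no rho and are not like for like with the control sums. Whether the 0 stands for absent transcript or for a value not reported was not tested. The gene rho was the only rod gene called lower, and 0 of the 6 were called higher (limma, adjusted p under 0.05). The 5 cone genes measured of 7 summed to 5731 to 16441 FPKM in control and 10306 to 15568 FPKM in MeHg libraries. Among other tissues, 4 skeletal muscle markers summed to 28.9 to 257 FPKM in control and 3.28 to 249.9 FPKM in MeHg libraries, 4 pigment epithelium markers to 763 to 2276 and 606 to 882 FPKM, and 4 lens markers to at most 1.91 FPKM. The 6 oocyte markers summed to 670.4 and 1225 FPKM in control libraries 5 and 7, against at most 2.85 FPKM in control libraries 3, 4 and 8 and at most 0.879 FPKM in the MeHg lineage. Calls and some differences and contrasts without libraries 5 and 7 are therefore given beside those of all 11. SDs, shares and level orders are given for all 11 only. In bulk retina, fewer cells of a type and less RNA per cell cannot be told apart.

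Of the 9 genes, 7 were lower in the MeHg lineage, 0 were higher and 2, hlfa and hlfb, did not pass (limma, adjusted p under 0.05 by Benjamini-Hochberg over 20320 genes). At an unadjusted limma p under 0.05, 1 of them, hlfb, was higher. That unadjusted threshold was met by 4898 of all 20320 genes, counting both directions. At the adjusted threshold, 3.5% of all genes tested were called lower, 5.47% higher and 8.98% in either direction. Without control libraries 5 and 7 the same counts of 7 and 0 were found, with 4.65% of all genes called lower and 3.64% higher. The log2 differences of the 7 then ran from -1.72 for dbpb to -4.97 for bhlhe40. For the 7 called genes every MeHg value lay below every control value, which held for 2.72% of the genes tested. The median log2 difference was -2.29 over the 9 genes and 0.02 over all genes tested. All 9 passed the filter of a mean of 0.5 FPKM over the 11 libraries. For ciarta this rested on the control libraries, with a mean of 14.0 FPKM against 0.175 FPKM in the MeHg lineage. Differences are MeHg lineage minus control lineage in log2(FPKM + 1), a scale that understates the change of low genes.

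**Figure D1:**
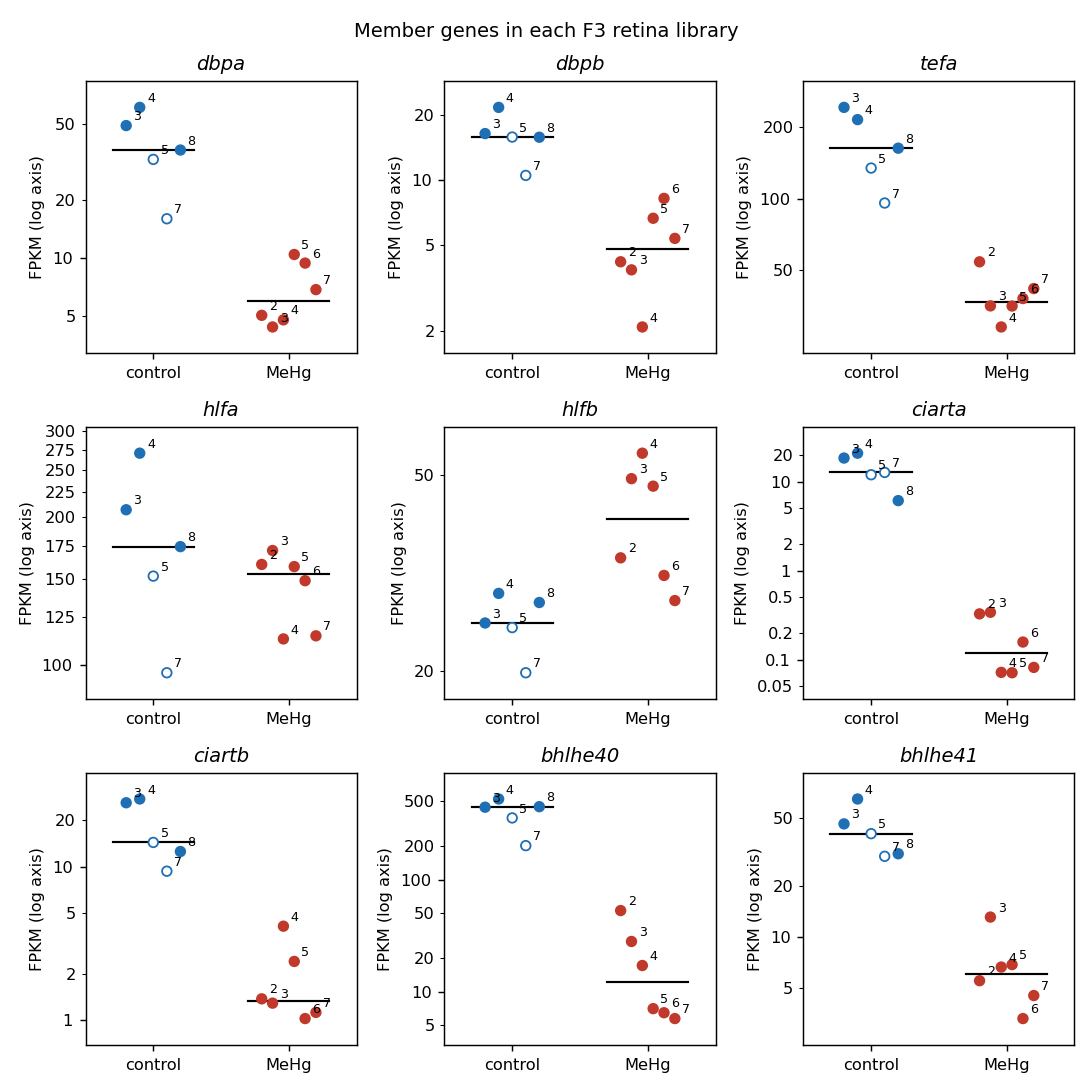
FPKM (log axis) of each gene in the 5 control and 6 MeHg libraries, with replicate numbers beside the points and a bar at the median. Open circles are control libraries 5 and 7. The lineages separate fully for dbpa, dbpb, tefa, ciarta, ciartb, bhlhe40 and bhlhe41 and overlap for hlfa and hlfb.

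The PAR bZIP genes split: dbpa, dbpb and tefa fell, and neither hlf gene passed the test. Their order of difference was dbpa, tefa, dbpb, hlfa and hlfb. The transcript of dbpa (ENSDARG00000063014), which encodes a D-box binding activator named for the albumin promoter in mammals, was at 48.9, 60.8, 32.6, 16.0 and 36.5 FPKM in control libraries 3, 4, 5, 7 and 8. In the 6 MeHg libraries its lowest, median and highest values were 4.38, 5.95 and 10.4 FPKM. Control library 7 was the lowest of its lineage and still lay above MeHg library 5, the highest of the other. The mean went from 39.0 ± 16.9 (SD, n = 5) to 6.82 ± 2.58 FPKM (SD, n = 6). The lineages differed by -2.29 ± 0.32 log2 units (SE; adjusted p = 0.000786 by limma).

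Its paralog dbpb (ENSDARG00000057652) was at 16.4, 21.7, 15.8, 10.5 and 15.8 FPKM in the same control libraries and at 2.08, 4.76 and 8.20 FPKM as the lowest, median and highest of the MeHg lineage. The gap was the narrowest of the 7 called genes: the lowest control value was 1.28 times the highest MeHg value, that of library 6. The lineages differed by -1.55 ± 0.27 log2 units (SE; adjusted p = 0.0033 by limma).

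The thyrotroph embryonic factor gene tefa (ENSDARG00000039117), induced by light in zebrafish, was the most abundant of the PAR bZIP genes that fell. It was at 242, 215, 135, 96.0 and 163 FPKM in control libraries 3, 4, 5, 7 and 8, and at 28.9, 36.8 and 54.3 FPKM as the lowest, median and highest of the MeHg lineage. On the log2 scale the SD was 0.30 in the MeHg lineage and 0.53 in the control lineage, where libraries 5 and 7 were the lowest. The control SD without those libraries was not computed. The mean fell from 170.2 ± 59.2 (SD, n = 5) to 39.0 ± 8.62 FPKM (SD, n = 6), or by -2.05 ± 0.23 in log2 units (SE; adjusted p = 0.000205 by limma).

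The hepatic leukemia factor gene hlfa (ENSDARG00000074752) was at 207, 270.3, 152, 96.3 and 174 FPKM in control libraries 3, 4, 5, 7 and 8. Its lowest, median and highest MeHg values were 113, 154 and 171 FPKM, all inside the control range. That overlap rested on control libraries 5 and 7, since every MeHg value lay below control libraries 3, 4 and 8. Its difference was -0.26 ± 0.23 log2 units (SE; adjusted p = 0.533 by limma), with a 95% interval of -0.76 to 0.25 that does not reach the values of dbpa, dbpb and tefa. With control libraries 5 and 7 left out the difference was -0.58 (adjusted p = 0.094 by limma).

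Its paralog hlfb (ENSDARG00000061011) was the only one of the 9 with a higher mean in the MeHg lineage. It was at 25.1, 28.8, 24.5, 19.9 and 27.6 FPKM in the control libraries and at 27.8, 40.7 and 55.3 FPKM as the lowest, median and highest of the MeHg lineage. MeHg library 7, the lowest, fell between control libraries 8 and 4, and the other 5 lay above every control library. Its difference was 0.64 ± 0.19 log2 units (SE; adjusted p = 0.0546 by limma), with a 95% interval of 0.23 to 1.05 before adjustment over genes. The gene passed without MeHg library 7 (adjusted p = 0.0333) and with a filter at a mean of 5 FPKM (adjusted p = 0.0423). It did not pass when control libraries 5 and 7 were left out (adjusted p = 0.197). Its values rest on 68 to 266 fragments per library, against 1665 to 3996 for hlfa, so they carry more counting error.

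**Figure D2:**
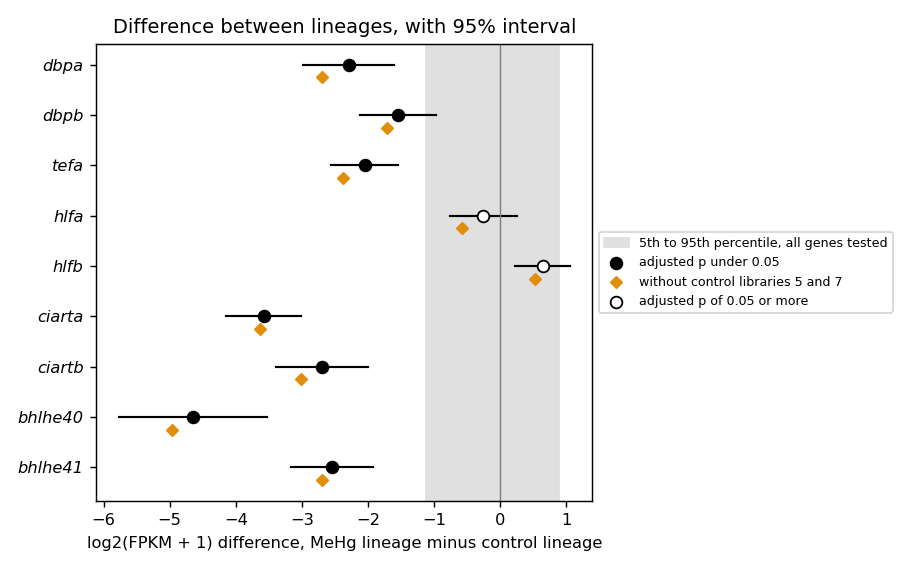
Difference in log2(FPKM + 1), MeHg lineage minus control lineage, with the 95% interval of the limma fit. Filled circles passed an adjusted p of 0.05, diamonds show the difference without control libraries 5 and 7, and the grey band spans the 5th to 95th percentile of all genes tested (-1.12 to 0.89). The points of the 7 called genes lie left of the band and both hlf genes lie inside it.

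The hlf genes made up a larger share of PAR bZIP transcripts in every MeHg library than in any control library. The 5 genes summed to 540, 597, 359, 239 and 417 FPKM in control libraries 3, 4, 5, 7 and 8 and to 197 to 264 FPKM in the MeHg libraries. The sums overlapped only through control library 7, the library with the most oocyte transcripts, which lay among the MeHg libraries. Control libraries 3, 4, 5 and 8 lay above every MeHg library. The joint share of the hlf genes did not overlap: hlfa and hlfb together made 43.0% to 50.1% of the sum in control libraries and 72.5% to 83.4% in MeHg libraries. The share of tefa was 36.1% to 44.9% in the control lineage, where it was near that of hlfa (38.4% to 45.3%), and 13.4% to 21.3% in the MeHg lineage. The shares of dbpa went from 6.71% to 10.2% in control libraries to 1.66% to 4.04% in MeHg libraries. Those of dbpb overlapped, at 3.03% to 4.39% in control and 1.02% to 3.48% in MeHg libraries. All shares depend on the gene lengths used for FPKM. The level of hlfa was 0.856 to 1.26 times that of tefa in control libraries and 2.73 to 4.82 times in MeHg libraries. Control library 7, with the lowest sum, had a hlf share of 48.7%, inside the range of the other control libraries.

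**Figure D3:**
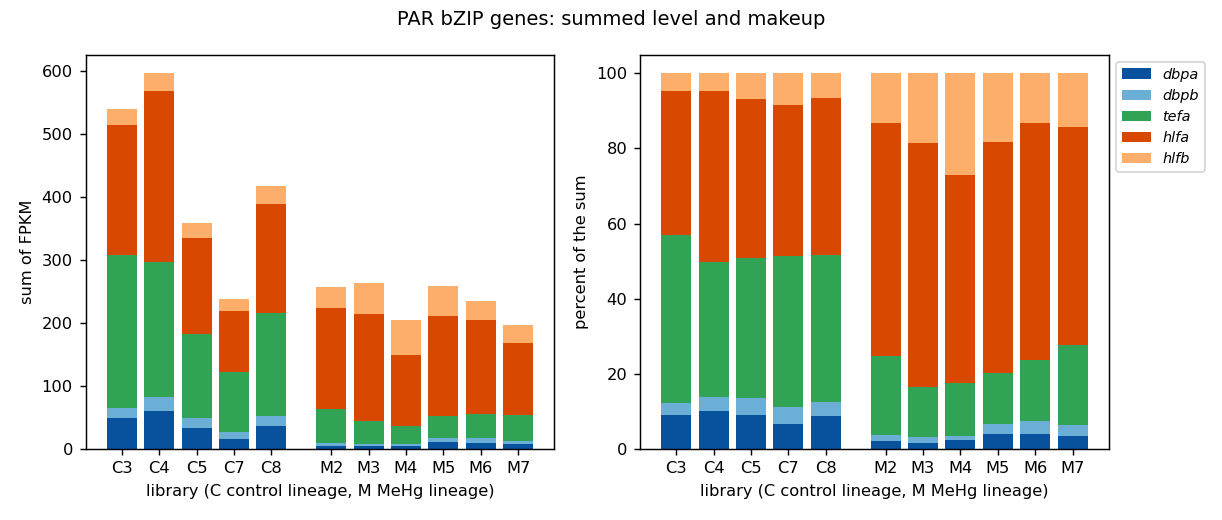
Summed FPKM of the 5 PAR bZIP genes (left) and each gene's percent of that sum (right) in every library. The hlf genes (orange) hold 43.0% to 50.1% of the sum in control and 72.5% to 83.4% in MeHg libraries.

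Both ciart genes fell, ciarta to the edge of detection. The transcript of ciarta (ENSDARG00000058094) was at 18.4, 20.9, 12.0, 12.7 and 6.12 FPKM in control libraries 3, 4, 5, 7 and 8. Its lowest, median and highest MeHg values were 0.0712, 0.12 and 0.341 FPKM, which stood for 1 to 6 fragments per library. The lowest control library, number 8, was 18.0 times the highest MeHg library. In total 736 fragments were seen in the control and 15 in the MeHg libraries, a ratio of 77.8 after scaling for library size, with an exact 95% interval of 46.9 to 140 that covers counting error only. The difference of -3.58 ± 0.26 log2 units (SE; adjusted p = 9.16e-06 by limma) had the smallest p of the 9 genes and stood at place 17 among all genes tested. With a pseudocount of 0.1 the difference was -5.69, and in the companion table -5.87.

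The paralog ciartb (ENSDARG00000088171) was at 26.1, 27.6, 14.4, 9.33 and 12.5 FPKM in the control libraries and at 1.02, 1.33 and 4.08 FPKM as the lowest, median and highest of the MeHg lineage. MeHg library 4 was the highest for ciartb, while the same library held 1 fragment of ciarta. The mean fell from 18.0 ± 8.32 (SD, n = 5) to 1.88 ± 1.19 FPKM (SD, n = 6). The lineages differed by -2.69 ± 0.32 log2 units (SE; adjusted p = 0.000265 by limma).

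The bhlhe genes fell as well, and bhlhe40 showed the largest log2 difference of the 9 at a pseudocount of 1. The transcript of bhlhe40 (ENSDARG00000004060) was at 444, 526, 356, 201 and 449 FPKM in control libraries 3, 4, 5, 7 and 8, the highest median of the 9 genes there. Its lowest, median and highest MeHg values were 5.76, 12.1 and 53.0 FPKM. The MeHg libraries spread over a 9.21-fold range with library 2 at the top, and even that library lay below control library 7 by a factor of 3.80. The SD on the log2 scale was 1.23 in the MeHg lineage, the largest of any of the 9 genes, against 0.54 in the control lineage. The mean fell from 395 ± 124 (SD, n = 5) to 19.6 ± 18.5 FPKM (SD, n = 6). In log2 units the difference was -4.65 ± 0.52 (SE; adjusted p = 0.000167 by limma), and -5.02 without MeHg library 2.

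The transcript of bhlhe41 (ENSDARG00000041691) was at 46.0, 64.4, 40.3, 29.7 and 30.7 FPKM in the control libraries and at 3.31, 6.09 and 13.1 FPKM as the lowest, median and highest of the MeHg lineage. Here the highest MeHg library was number 3, not number 2. The mean fell from 42.2 ± 14.1 (SD, n = 5) to 6.66 ± 3.41 FPKM (SD, n = 6). In log2 units the difference was -2.54 ± 0.29 (SE; adjusted p = 0.000194 by limma).

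Within the control lineage library 4 held the highest value of 8 of the 9 genes and library 7 the lowest of 8. The share of all genes with these extremes was not computed. The exceptions were tefa, highest in library 3, and ciarta, lowest in library 8. Library 7 also had the lowest control sums of rod, cone, bipolar cell and Muller glia markers (8226, 5731, 627 and 90.2 FPKM). Its pigment epithelium sum, 770 FPKM, was above the control minimum of 763 FPKM. Low values in library 7 were thus not particular to the 9 genes. Library 7 is the one with the most oocyte transcripts, and the part of those in its low values was not tested. In the MeHg lineage the extremes were scattered, with 5 of the 6 libraries holding the highest value of at least 1 gene. Ordered by median FPKM, the control lineage ran bhlhe40, hlfa, tefa, bhlhe41, dbpa, hlfb, dbpb, ciartb and ciarta. Only tefa and bhlhe41 were neighbours without overlap in that order, although bhlhe40 lay above hlfa, and hlfb above dbpb, within each of the 5 libraries. The MeHg lineage ran hlfa, hlfb, tefa, bhlhe40, bhlhe41, dbpa, dbpb, ciartb and ciarta, with no overlap between hlfa and hlfb or between ciartb and ciarta. Other neighbours overlapped in range, but within each of the 6 MeHg libraries tefa lay above bhlhe40, bhlhe40 above bhlhe41 and dbpa above dbpb. The order of the remaining neighbours changed between libraries. These orders depend on the gene lengths used for FPKM: hlfb had fewer fragments than dbpb in each control library, 73 against 274 in library 3.

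Paralogs differed in how far apart the lineages were. Within each library the log2(FPKM + 1) of one gene was subtracted from that of its partner, and the result was compared between lineages with an exact two-sided permutation test, adjusted over 4 contrasts. In all 4 paralog pairs the contrast was lower in the MeHg lineage. For dbpa minus dbpb it went from 1.14 ± 0.38 (SD, n = 5) to 0.39 ± 0.30 (SD, n = 6, exact p = 0.013, adjusted 0.0173), so dbpa fell further than dbpb on average. The lineages overlapped, since MeHg libraries 4 and 5, at 0.91 and 0.58, lay above control library 7, at 0.57. Control libraries 3, 4, 5 and 8 lay above every MeHg library in this contrast. For hlfa minus hlfb it went from 2.72 ± 0.38 to 1.82 ± 0.45 (exact p = 0.00433, adjusted 0.0173), with no overlap between the lineages; 0.00433 is the smallest p this design allows. For bhlhe40 minus bhlhe41 it went from 3.18 ± 0.41 to 1.08 ± 1.07 (exact p = 0.013, adjusted 0.0173), and MeHg library 2, at 3.05, lay inside the control range. For ciarta minus ciartb, added after the table had been seen to hold ciartb, it went from -0.33 ± 0.48 to -1.21 ± 0.61 (exact p = 0.0173, adjusted 0.0173), with overlap between the lineages. The size of this change, -0.89, depends on the pseudocount because ciarta is near 0 in the MeHg lineage: it was -2.44 at a pseudocount of 0.1 and -2.59 in the companion table. Without control libraries 5 and 7 the bhlhe and ciart contrasts no longer passed (adjusted exact p = 0.0635 and 0.0952). The difference of tefa minus hlfa, a pair chosen for its values and so not tested, was -0.07 ± 0.20 (SD, n = 5) in the control and -1.87 ± 0.32 (SD, n = 6) in the MeHg lineage.

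**Figure D4:**
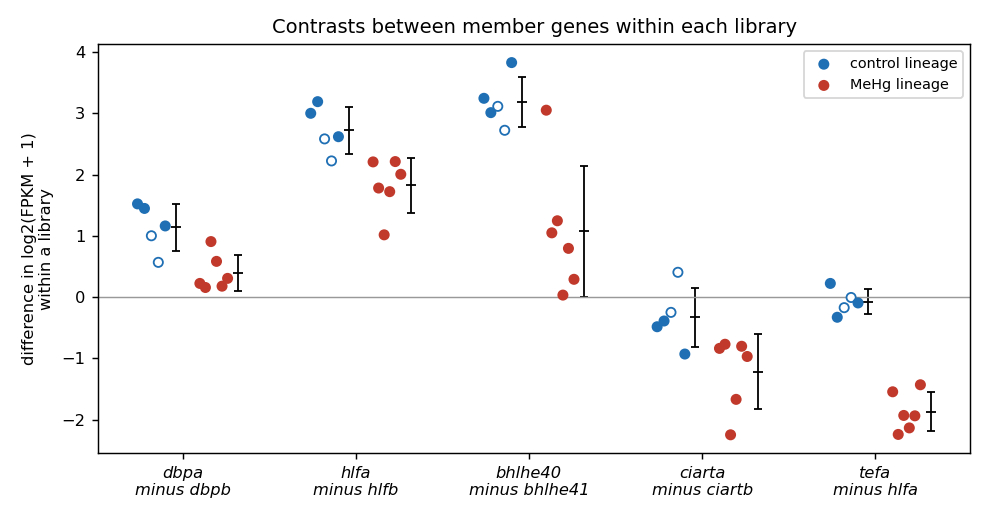
Difference in log2(FPKM + 1) between the named genes within each library, by lineage, with mean and SD at the right of each group. Open circles are control libraries 5 and 7. The lineages are fully apart for hlfa minus hlfb; tefa minus hlfa was chosen for its values and is shown as a description.

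Other genes of the clock and of D-box output moved in both directions beside these 9. Of 46 further genes tested, 14 rose, 14 fell and 18 did not pass, and their median log2 difference was 0.27. Leaving out control libraries 5 and 7 gave the same counts, with per2 and pora called lower in place of neil1 and porb. Of 6 clock activators, whose products drive E-box genes, 5 rose and clockb, at a log2 difference of 0.59, did not pass. The activators arntl1a and clocka, which encode BMAL and CLOCK proteins, went from 19.7 ± 3.49 to 64.5 ± 10.0 FPKM and from 3.05 ± 0.85 to 17.9 ± 2.96 FPKM (SD, n = 5 and n = 6). The bmal paralog arntl1b and npas2, a relative of clock, rose by log2 differences of 1.38 and 1.43. Of 8 period and cryptochrome repressors 2 rose, 3 fell and 3 did not pass: per1b and per3 had log2 differences of -4.41 and -3.39 and cry2b and cry2a of 1.99 and 1.98. Without control libraries 5 and 7, 4 fell, the fourth being per2.

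Of the 4 D-box repressor genes tested, nfil3, nfil3-2 and nfil3-5 moved against dbpa, dbpb and tefa, and nfil3-6 fell with them. The falling gene was the most abundant of these repressors in the control lineage, with means of 140.3 FPKM in control and 32.4 FPKM in MeHg libraries. Means of nfil3, nfil3-2 and nfil3-5 were 7.95, 8.21 and 10.4 FPKM in control and 46.5, 289 and 363 FPKM in MeHg libraries. Summed over these 4 genes, nfil3 transcripts were at 139 to 217 FPKM in control and 565 to 790 FPKM in MeHg libraries. The PAR bZIP sum was 1.70 to 3.61 times the nfil3 sum in control libraries and 0.255 to 0.361 times in MeHg libraries. Of 11 Rev-erb and ROR receptor genes, which act on a separate response element, 3 rose, 2 fell and 6 did not pass; nr1d2b and nr1d1 had log2 differences of -4.52 and -3.77, and nr1d4b and nr1d4a of 3.19 and 2.91. Of 6 kinase and F-box genes of the clock, fbxl3l rose (log2 difference 4.13), csnk1da fell (-0.71) and 4 did not pass.

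Genes of D-box output did not move as one. On a list of 8 light-induced and D-box genes, drawn up with earlier results of these data known, 6 fell and 2 did not pass, and the median log2 difference was -0.98. The UV damage gene ddb2 and the photolyase family genes cry-dash and cry5 fell, with log2 differences of -3.15, -3.86 and -3.21, as did the DNA repair gene xpc (-0.78). The light-induced genes per2 and cry1a, at log2 differences of -0.49 and -0.03, did not pass (limma adjusted p = 0.336 and 0.952). Without control libraries 5 and 7, per2 was called lower (-0.92, adjusted p = 0.0461 by limma), and the repair gene neil1 lost its call (-0.71, adjusted p = 0.0891), which left 6 lower. Of 5 genes known from mouse as output of PAR bZIP factors, only porb, a cytochrome P450 reductase gene, fell (log2 difference -1.26, limma adjusted p = 0.0278). The pyridoxal kinase genes pdxka and pdxkb, the heme synthesis gene alas1 and pora were at log2 differences of -0.20, 0.52, 0.39 and -0.53 and did not pass. Without control libraries 5 and 7 the call passed from porb (-1.30, adjusted p = 0.0779 by limma) to pora (-0.79, adjusted p = 0.0332).

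**Figure D5:**
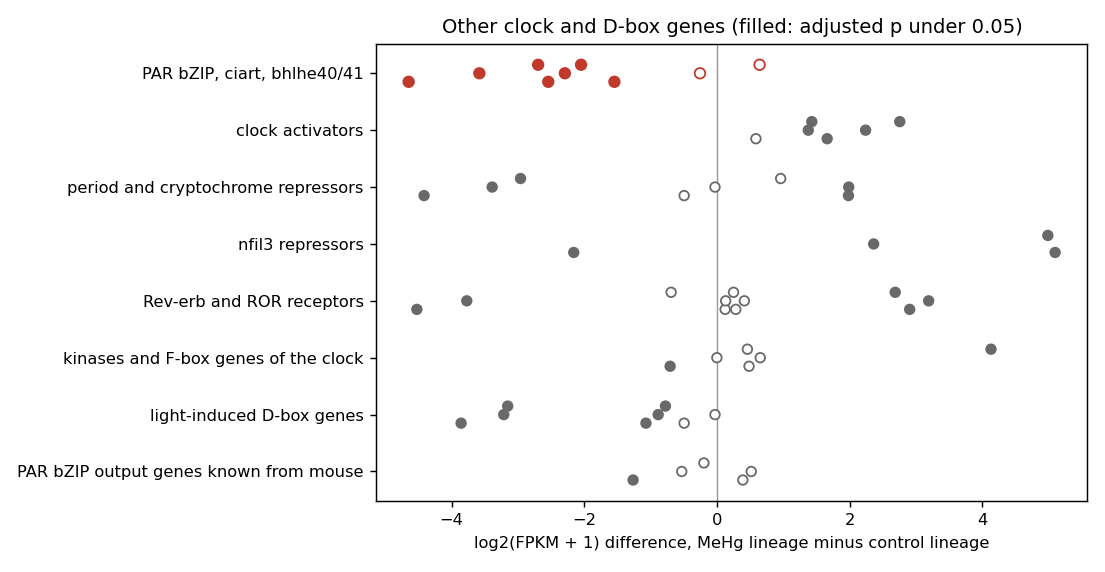
Difference in log2(FPKM + 1), MeHg lineage minus control lineage, of the 9 genes (red) and of the tested genes of each further list (grey). Filled points passed an adjusted p of 0.05. Clock activators lie right of 0 and light-induced D-box genes left of it; per2 and cry1a stand in 2 lists.

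The genes whose levels most resembled each of the 9 over the 11 libraries were taken from 8620 genes with an assigned symbol and a mean of at least 5 FPKM. The lineage difference itself enters this measure, and the same libraries were used for every gene. The closest to ciarta were cry-dash, per1b and cry5 (Pearson r of 0.993, 0.984 and 0.982 in log2(FPKM + 1)), and cry5 was also the closest to ciartb (0.977). For tefa they were sybu, cables2a and the cone arrestin gene arr3a (0.987, 0.987 and 0.984), and for bhlhe40 rab40b, dopey2 and prkg2 (0.987, 0.985 and 0.984). Cone markers did not move as one: of the 5 tested, 2 were called higher and 1 lower in the MeHg lineage. The closest to bhlhe41 were ncaldb, dynll1 and cry-dash (0.961, 0.961 and 0.959), to dbpa ttc19, sh3gl2 and arhgef9a (0.977, 0.976 and 0.974), and to dbpb ctdnep1b, amd1 and grpel1 (0.977, 0.976 and 0.967). The hlf genes had other nearest genes, adcyap1r1b, ptpn11b and uts1 for hlfa (0.966, 0.954 and 0.944) and tnrc18, tsku and csrnp1a for hlfb (0.967, 0.937 and 0.926).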

How the data were processed

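Retinal total RNA was made into TruSeq libraries and read from both ends over 100 bases, per the labels' protocols. The submitters' processing notes name CASAVA 1.8.2, cutadapt, FastQC, TopHat and Cuffnorm and the build Zv9; annotation and strand setting were not given in the sources used here. The authors deposited FPKM values. Their companion deposited table holds a signal, each gene's fragments over a library-wide size factor: 98.3% to 98.6% of values lay within 0.01 of whole multiples of 1 step per library. No count test was run. Each table also has 1 column without a name, which was not used, and control replicate 1 was not analysed here. No sequences were used, so the planned motif search was not made, nor the contrast of tefa with tefb.

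The test was limma 3.58.1 (R 4.3.3) on log2(FPKM + 1) for all genes averaging 0.5 FPKM or more (eBayes with trend, Benjamini-Hochberg adjustment, threshold 0.05). The code of the fit was checked on simulated data with independent normal noise and changes planted in genes of higher level. That check did not cover changes in genes near 0 or effects shared within a library. Single contrasts had an exact permutation test (scipy 1.17.1). Members, lists and tests were chosen with earlier results of these data known. By the naming rule, all members, up to 4 genes of each list with the smallest p and the 3 genes most alike per member were named; clockb, per2, cry1a, neil1 and pdxka were chosen after their values were seen. No pair of libraries of one lineage differed by as little as sampling noise (lowest chi-square per degree of freedom 9.79). Alternatives covered the pseudocount, filters, scaling, weights, a replicate block and left-out libraries.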

Additional observations from a re-analysis of the deposited data

Results flagged for a closer look

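MeHg library 3 stood apart from the other 5 MeHg libraries for bhlhe41, at 13.1 FPKM. Its gap to the next library was 0.635 of the lineage's range in FPKM, against Dixon's critical value of 0.625. The log2 scale of the tests was not used here. The bhlhe41 value was the only one past that criterion among 18 groups of values (9 genes in each lineage), and chance gives about 1 such group in 20.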

How the results depend on the processing

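Over 21 alternative fits all 9 genes kept their direction, and 7 were called lower in 20 of them. The calls of tefa, ciarta, ciartb, bhlhe40 and bhlhe41 held in all 21. The numbers 3, 4, 5 and 7 occur in both lineages, and whether they stand for pairs cannot be told here. Deviations of same-numbered libraries correlated at -0.23 to -0.01, and those of differently numbered libraries at -0.21 to 0.22. With a replicate block over these 8 libraries, 5 of the 9 genes were called lower, without dbpa (adjusted p = 0.0895) and dbpb (0.132), and 199 genes were called in all; the same libraries without the block gave 784. A filter at a mean of 5 FPKM called 1 gene of the 9, hlfb, higher. Leaving out each library in turn gave 1177 to 1905 genes called, the lowest without control library 5, with 7 lower and 0 to 1 higher among the 9; the 1 was hlfb. Without control libraries 5 and 7 the contrasts of bhlhe40 with bhlhe41 (-2.28) and ciarta with ciartb (-0.61) no longer passed; fewer libraries entered them. That of ciarta with ciartb was -2.44 at a pseudocount of 0.1 and -2.59 in the companion table, against -0.89. Low depth limits ciarta most, with 1 to 6 fragments per MeHg library.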
